A study of Mus musculus with 4 samples.

Results

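The genes described here are the matrix metalloproteinases (Mmp), the ADAMTS proteases (Adamts, secreted metalloproteinases with thrombospondin repeats) and the tissue inhibitors of metalloproteinases (Timp), measured in regenerating mouse liver. Members were all probe sets with a single platform gene symbol that begins with Mmp, Adamts or Timp and a number. The rule found 70 probe sets for 37 genes, out of 18193 genes with a single symbol: 18 Mmp genes, 15 Adamts genes and 4 Timp genes.

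Livers came from nude mice (strain BALB/c nu/nu), whose mature T cells are missing. Before any cells were given, each mouse had 23 injections of carbon tetrachloride (a hepatotoxin that scars the liver on repeated dosing) at 0.25 ml/kg. A dose of 1000000 human bone marrow mesenchymal stem cells then went into the spleen, a partial hepatectomy was done on day 21, and the regrowing tissue was collected 8 days later. The cells of the control group expressed EGFP, a green fluorescent protein, and those of the other group expressed OGFRL1, with 2 arrays in each group. Both groups therefore share the toxin, the human cells and the surgery, and differ by label only in the protein that the cells carried. The labels give neither the promoter of the transgenes nor the age of the mice, and they do not say that each array had an animal of its own, so every p-value rests on a spread between arrays that may be technical. Probe sets are for mouse transcripts and the tissue is whole liver, in which more cells of a type and more RNA per cell cannot be told apart.

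Mmp enzymes are zinc proteases that cut collagens, elastin, basement membrane proteins and other matrix components. Most are made as inactive precursors, and several work at the cell surface. Adamts enzymes cut large proteoglycans such as aggrecan and versican, trim procollagens or act on other matrix proteins. Timp proteins bind the active site of the proteases and block it. In scarred liver, matrix is laid down chiefly by activated stellate cells, and its removal depends on how much protease is free of inhibitor.

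Signals are MAS5 intensities on a linear scale, and levels of different probe sets are not compared, since each probe set binds with its own strength. Median signals were 11.6 to 12.5 on the 4 arrays. All 8 hepatocyte markers were measured, with summed signals of 96447 and 68037 on the EGFP arrays and 51193 and 56289 on the OGFRL1 arrays. The median log2 fold change of these markers (OGFRL1 minus EGFP, here and throughout) was -0.60. In 8 of the 8 both OGFRL1 arrays were below both EGFP arrays, against 20.5% of all genes tested. Spike-in controls were also lower in OGFRL1 arrays. Their mean was -0.43 over 4 Cre probe sets and -0.32 over 14 BioB, BioC and BioD probe sets, with 0 above 0 in either set. The 134 tested genes with the highest mean signals had a median of -0.43, with 6 above 0. The cause of these shifts, and their part in the members' values, was not tested. The members are far dimmer than the hepatocyte markers, with mean signals of at most 268. Among the 8465 tested genes in the members' signal range, the median log2 fold change was 0.08.

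Of the 37 genes, 24 had a chosen probe set (the brightest of the gene) with a mean signal of at least 11.6, the filter for testing. These were 11 Mmp, 9 Adamts and 4 Timp genes. Mmp9 was the dimmest of them, with a mean of 12.1, and Adamts3, at 9.93, was the brightest of the 13 genes below the filter. No signal of the 13 exceeded 11.8 on any array.

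No member passed the threshold of an adjusted p of 0.05 in the limma fit over 11942 genes, in which 0.511% of genes passed. Among the tested genes, most proteases and inhibitors had higher signals in OGFRL1 livers. The log2 fold change was above 0 for 11 of 11 Mmp genes, 8 of 9 Adamts genes and 4 of 4 Timp genes, against 55.6% of all genes tested. These counts describe the genes that passed the filter and support no direction for the family, since Mmp8, Mmp9 and Timp4 passed only through their signals in the OGFRL1 group, and 0 members passed only through the EGFP group. Without those 3 genes the counts were 9 of 9, 8 of 9 and 3 of 3. The medians were 0.53 for Mmp, 0.39 for Adamts and 0.57 for Timp genes, beside 0.04 over all genes tested. In 15 of the 24 members both OGFRL1 arrays were above both EGFP arrays, which held for 27% of all genes tested, and in 0 of the 24 were both below, against 20.5% of all genes tested. Below the filter, Mmp3, Adamts6 and Adamts20 did have both OGFRL1 arrays below, and Mmp1b and Mmp11 both above. An unadjusted p under 0.05 was reached by 4 members, Adamts9, Mmp12, Adamts12 and Timp3, all higher in OGFRL1 livers. The share of all genes that reached it in that direction was 9.01%.

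**Figure D1:**
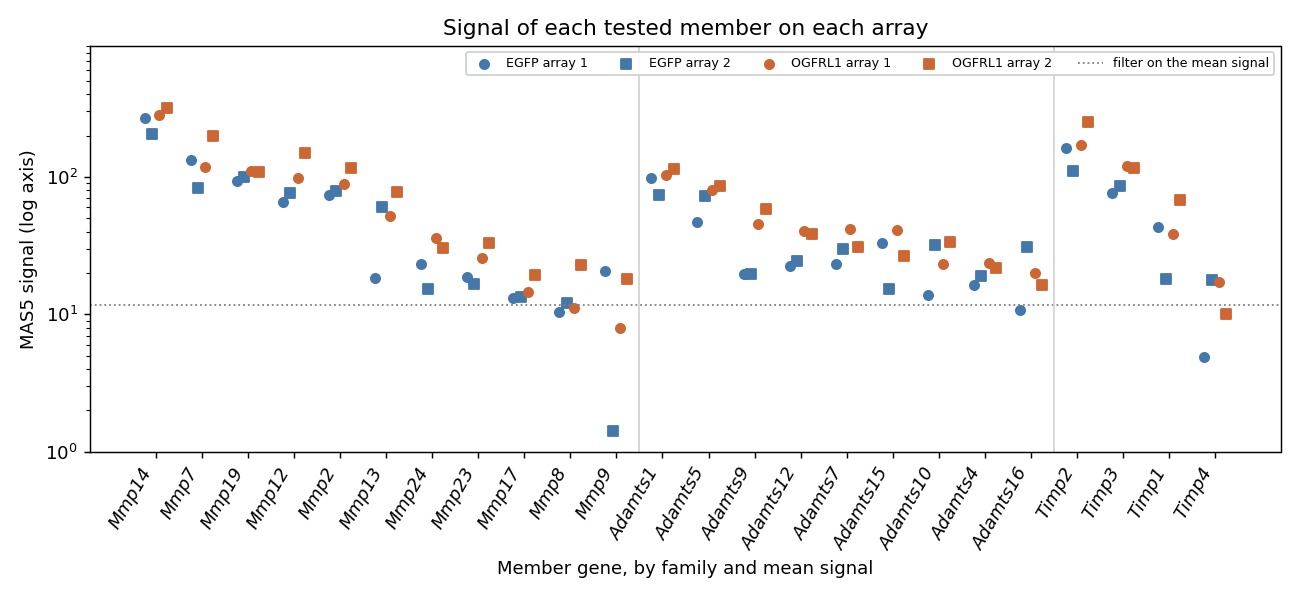
MAS5 signal (log axis) of the 24 tested member genes, ordered by family and mean signal. Blue points are the EGFP arrays and orange points the OGFRL1 arrays (circles array 1, squares array 2), and the dotted line is the filter at a mean signal of 11.6; the groups stand apart for Adamts9 and Adamts12 and overlap for Mmp9 and Timp4.

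The filter takes part in this picture. With no filter, 26 of the 37 genes were above 0 and the median was 0.35, while 51.4% of the 18193 genes were above 0. Of the 13 dim genes, 3 were higher and 10 lower, with a median of -0.03. Dim genes leaned lower in general: 55.6% of all genes that passed the filter were above 0, so the share among all genes below it was under 51.4%. The dim genes were Mmp1a, Mmp1b, Mmp3, Mmp10, Mmp11, Mmp16, Mmp20, Adamts3, Adamts6, Adamts8, Adamts18, Adamts19 and Adamts20. There are no detection calls to say which of these signals lie above background. Of the 13 genes, 0 had an unadjusted p under 0.05 on the chosen probe set. A further, still dimmer probe set of Adamts3 had an unadjusted p of 0.0479 in the fit of all probe sets (-0.91, adjusted p = 0.469).

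**Figure D2:**
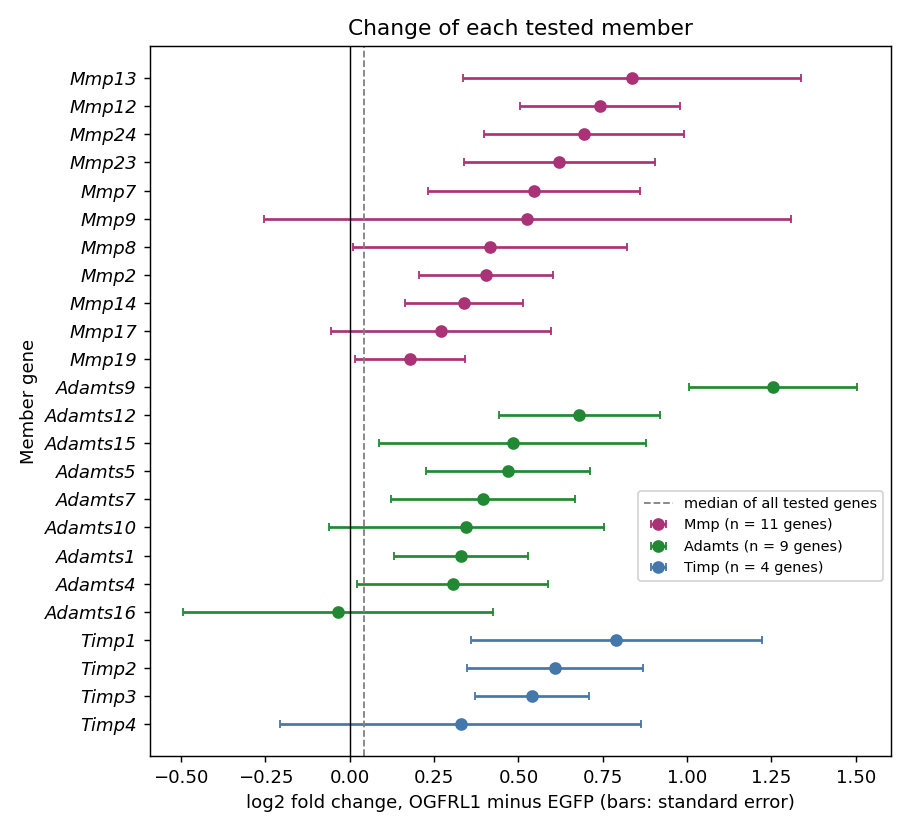
Log2 fold change of each tested member, OGFRL1 minus EGFP, with its standard error from the limma fit; the dashed line is the median of all tested genes, 0.04. Mmp genes lie between 0.18 and 0.84, Timp genes between 0.33 and 0.79, and Adamts genes between -0.03 for Adamts16 and 1.26 for Adamts9.

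The promoters of the members differ in the short motifs that they carry, and 5 promoters with a motif, all of tested members, are shown. RefSeq promoters (build GRCm38.p6) were found for 23 of the 37 genes, 14 of them tested. The 250 bases before the start were searched on both strands for the AP-1 site TGAGTCA, the TATA box TATAAA and the GC box GGGCGG, which are capitalised below where they or their reverse complements occur; none of the matches shown overlap. AP-1 is the factor through which growth factors and cytokines act on several Mmp genes. The sequences run 5′ to 3′ on the strand of the gene.
Mmp13 promoter, chr9:7272264-7272513, plus strand: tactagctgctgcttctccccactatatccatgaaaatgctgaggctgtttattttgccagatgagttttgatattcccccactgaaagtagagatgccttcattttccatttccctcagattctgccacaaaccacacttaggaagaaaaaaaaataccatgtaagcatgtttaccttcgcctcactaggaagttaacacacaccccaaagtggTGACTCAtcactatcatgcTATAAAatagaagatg
Mmp12 promoter, chr9:7347124-7347373, plus strand: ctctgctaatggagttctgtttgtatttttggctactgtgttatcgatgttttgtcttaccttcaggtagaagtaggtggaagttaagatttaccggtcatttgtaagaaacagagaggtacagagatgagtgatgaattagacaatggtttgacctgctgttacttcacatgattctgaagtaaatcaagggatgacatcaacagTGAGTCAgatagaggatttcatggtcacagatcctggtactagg
Mmp14 promoter, chr14:54431348-54431597, plus strand: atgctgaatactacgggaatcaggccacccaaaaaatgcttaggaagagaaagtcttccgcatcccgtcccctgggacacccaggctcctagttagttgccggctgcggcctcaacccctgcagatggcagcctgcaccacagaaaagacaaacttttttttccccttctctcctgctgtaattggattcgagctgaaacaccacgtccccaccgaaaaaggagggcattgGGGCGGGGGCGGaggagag
Adamts9 promoter, chr6:92943535-92943784, minus strand: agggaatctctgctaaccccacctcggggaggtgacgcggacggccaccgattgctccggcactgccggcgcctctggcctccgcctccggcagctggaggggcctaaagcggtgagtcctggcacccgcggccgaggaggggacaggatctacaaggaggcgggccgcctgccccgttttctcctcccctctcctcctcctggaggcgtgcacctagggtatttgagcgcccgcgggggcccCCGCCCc
Timp2 promoter, chr11:118355412-118355661, minus strand: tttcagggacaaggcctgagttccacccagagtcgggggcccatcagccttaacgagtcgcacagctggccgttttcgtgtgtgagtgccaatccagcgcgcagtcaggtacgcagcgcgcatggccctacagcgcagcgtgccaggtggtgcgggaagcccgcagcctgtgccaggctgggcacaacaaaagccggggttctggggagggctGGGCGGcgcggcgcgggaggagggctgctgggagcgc

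An AP-1 site was found in 7 of the 23 genes, Mmp1a, Mmp1b, Mmp3, Mmp7, Mmp10, Mmp12 and Mmp13, and in 4.46% of the 32851 promoters searched. Those of Mmp13 and Mmp12 start 35 and 44 bases before the gene's start. Of these 7 genes only Mmp7, Mmp12 and Mmp13 were bright enough to be tested. A second listed start of Mmp12, and a second of Mmp7, had none in their windows. GC boxes were found in 11 of the 23 genes, among them Mmp14, Mmp24, Adamts1, Adamts9, Timp1, Timp2 and Timp3, against 32.7% of all promoters. A TATA box was found in 8 of them, against 12.4% of all promoters. The tested genes Mmp8, Mmp23, Adamts12 and Timp4 had no match to any of these motifs, and Adamts1 had both a TATA box and GC boxes. These matches describe the letters and are not evidence of binding. Since 23 of the 24 tested members were above 0, the direction of change cannot tell promoters with and without a motif apart.

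Collagenases open native fibrillar collagen. Mmp13, the main interstitial collagenase of rodents, had a signal of 18.4 on EGFP array 1 and 60.7 on EGFP array 2. In OGFRL1 livers it gave 51.9 on array 1 and 77.3 on array 2, and pairs of values below follow this order. The groups overlapped, since EGFP array 2 was above OGFRL1 array 1, and the log2 fold change of 0.84 ± 0.50 (SE) had a limma adjusted p of 0.491. It was 0.06 without EGFP array 1 and 1.61 without EGFP array 2. Mmp8, the collagenase of neutrophils, was near the filter at 10.4, 12.1, 11.1 and 22.8 on EGFP 1, EGFP 2, OGFRL1 1 and OGFRL1 2. Only OGFRL1 array 2 stood above the rest (0.42 ± 0.41, adjusted p = 0.689).

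The gelatinases digest denatured collagen and basement membrane collagen. Mmp2, made by stellate cells and fibroblasts, gave 73.6 and 79.1 in EGFP livers and 88.7 and 117 in OGFRL1 livers. Both OGFRL1 arrays were above both EGFP arrays, and the log2 fold change was 0.40 ± 0.20 (adjusted p = 0.404). A further Mmp2 probe set gave 70.8 and 56.3 against 56.5 and 96.7, where the groups overlapped. Mmp9, a gelatinase of leukocytes, had the largest standard error of the tested members on the log2 scale. It gave 20.8 and 1.42 in EGFP livers and 7.94 and 18.1 in OGFRL1 livers, so that the EGFP arrays enclosed both OGFRL1 arrays (0.53 ± 0.78, adjusted p = 0.805).

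Mmp7, matrilysin, a small enzyme without the hemopexin domain, gave 132 and 82.8 in EGFP livers and 119 and 200.2 in OGFRL1 livers. OGFRL1 array 1 lay between the EGFP arrays, and the log2 fold change was 0.55 ± 0.31 (adjusted p = 0.471). It was 0.18 without OGFRL1 array 2 and 0.915 without OGFRL1 array 1. Mmp12, the elastase of macrophages, gave 65.7 and 76.8 in EGFP livers and 98.5 and 149 in OGFRL1 livers. Its means were 71.2 ± 7.85 (SD, n = 2) and 124 ± 35.6, the groups did not overlap, and the difference was 0.74 ± 0.24 on the log2 scale (adjusted p = 0.214). Mmp19 gave 92.7 and 100.2 against 111 and 108, an increase of 0.18 ± 0.16 on the log2 scale (adjusted p = 0.662), the smallest among the tested Mmp genes. Mmp23, an enzyme anchored by its signal region in the membrane, gave 18.7 and 16.7 against 25.5 and 33.1 (0.62 ± 0.28, adjusted p = 0.364). A second Mmp23 probe set, just below the filter, gave 4.05 and 18.5 against 4.67 and 18.4 (0.05 ± 0.70 in the fit of all probe sets). On the chosen probe sets the groups did not overlap in Mmp12, Mmp19 or Mmp23.

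Membrane-type enzymes act at the cell surface. Mmp14, which activates the Mmp2 precursor there and also cuts collagen itself, gave 267 and 207 in EGFP livers and 281 and 316 in OGFRL1 livers. The groups did not overlap, and the log2 fold change was 0.34 ± 0.17 (adjusted p = 0.425). The 2 further Mmp14 probe sets showed more: 81.4 and 69.3 against 128 and 115 (0.66 ± 0.17), and 18.1 and 20.0 against 34.5 and 30.2 (0.67 ± 0.29). In the fit of all probe sets, from which these values come, the first had an unadjusted p of 0.0083 and an adjusted p of 0.297. Mmp24 gave 23.4 and 15.3 against 35.7 and 30.3 (0.69 ± 0.30, adjusted p = 0.341), but its other probe set above the filter was at -0.03 ± 0.42. Mmp17, bound to the membrane by a lipid anchor, was dim at 13.1 and 13.5 against 14.5 and 19.2 (0.27 ± 0.33, adjusted p = 0.75).

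Adamts9, a protease of versican and aggrecan, had the largest difference among the members. Its signals were 19.5 and 19.7 in EGFP livers and 45.7 and 58.4 in OGFRL1 livers, or means of 19.6 ± 0.179 (SD, n = 2) and 52.1 ± 9.04. The EGFP arrays were almost equal and both OGFRL1 arrays were above them by more than the spread within groups. The log2 fold change was 1.26 ± 0.25 with an unadjusted p of 0.00185, and it missed the threshold over all genes (adjusted p = 0.0906); 98.6% of tested genes had a lower log2 fold change. It passed without EGFP array 1 (adjusted p = 0.049) and without EGFP array 2 (adjusted p = 0.0435), fits in which 619 and 856 genes passed, and not without OGFRL1 array 1 (adjusted p = 0.392) or OGFRL1 array 2 (adjusted p = 0.695). The difference was not seen on every probe set of the gene. A second Adamts9 probe set gave 17.2 and 8.12 against 15.6 and 8.00 (-0.06 ± 0.475 in the fit of all probe sets), and another, below the filter, 10.2 and 8.44 against 14.2 and 10.7.

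The other proteoglycan-cutting members had smaller log2 fold changes. Adamts1 gave 97.8 and 74.4 in EGFP livers and 103 and 114 in OGFRL1 livers (0.33 ± 0.20, adjusted p = 0.491). Adamts5, with Adamts4 the main aggrecanase of cartilage, gave 47.1 and 73.0 against 80.1 and 85.4 (0.47 ± 0.24, adjusted p = 0.425). The 2 further Adamts5 probe sets were at 0.22 ± 0.18 and 0.24 ± 0.25. For Adamts1 and Adamts5 the groups did not overlap on the chosen probe set. Adamts4 gave 16.3 and 19.0 against 23.4 and 21.7 (0.31 ± 0.28, adjusted p = 0.673). Adamts15 gave 32.9 and 15.2 against 40.9 and 26.4, with overlap (0.48 ± 0.40, adjusted p = 0.628), and its log2 fold change was 0.96 without EGFP array 1 and 0.003 without EGFP array 2. The proteoglycans aggrecan, versican and brevican, their best-known substrates, were themselves below the filter in these livers.

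Of the remaining Adamts genes, Adamts12 was the most separated on its chosen probe set. Its signals were 22.3 and 24.4 in EGFP livers and 40.5 and 38.6 in OGFRL1 livers, or 23.4 ± 1.51 (SD, n = 2) and 39.5 ± 1.36. The spread within each group was small beside the gap, but the log2 fold change of 0.68 ± 0.24 did not pass over all genes (adjusted p = 0.247). A second, dim Adamts12 probe set was at -0.33 ± 0.32 in the fit of all probe sets, with both OGFRL1 arrays below both EGFP arrays. With the mean over probe sets the log2 fold change of Adamts12 was 0.18. Adamts7, the closest relative of Adamts12, gave 23.3 and 29.7 against 41.5 and 30.6 (0.39 ± 0.27, adjusted p = 0.561). Adamts10, known from fibrillin microfibrils, gave 13.8 and 31.7 against 23.0 and 33.5 (0.35 ± 0.41, adjusted p = 0.743). Adamts16 gave 10.8 and 30.7 against 19.9 and 16.4, with both OGFRL1 arrays between the EGFP arrays (-0.03 ± 0.46, adjusted p = 0.98).

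Timp1, the inhibitor best known from liver fibrosis, gave 43.0 and 18.2 in EGFP livers and 38.4 and 68.4 in OGFRL1 livers. EGFP array 1 was above OGFRL1 array 1, so the groups overlapped, and the log2 fold change was 0.79 ± 0.43 (adjusted p = 0.45). It was 1.34 without EGFP array 1 and 0.24 without EGFP array 2. Timp2, which blocks proteases and also takes part in the activation of Mmp2 by Mmp14, gave 164 and 109.9 against 169.9 and 250.2. OGFRL1 array 1 was barely above EGFP array 1, and OGFRL1 array 2 stood well above both (0.61 ± 0.26, adjusted p = 0.342). Of its further probe sets, 3 gave similar values, from 0.61 to 0.73, and a dim one gave -0.20 ± 0.37.

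Timp3 binds to the matrix and inhibits Adamts enzymes as well as Mmp enzymes. It gave 76.0 and 85.4 in EGFP livers and 121 and 117 in OGFRL1 livers, or 80.7 ± 6.65 (SD, n = 2) and 119 ± 2.92. Both groups were tight and did not overlap, with a log2 fold change of 0.54 ± 0.17 (adjusted p = 0.209). Further Timp3 probe sets were at 0.58 ± 0.28 and 0.36 ± 0.32, and one near the filter was at -0.34 ± 0.45. Timp4 was near the filter and scattered, with 4.90 and 17.6 against 17.2 and 10.0 (0.33 ± 0.535, adjusted p = 0.824).

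Over the 8 genes with several probe sets above the filter, 11 of the 15 further probe sets had the sign of the chosen one. The 4 exceptions belonged to Adamts9, Mmp24, Timp2 and Timp3 and had mean signals of 11.8 to 16.0, near the filter. Over all 70 member probe sets, with no filter, the medians were 0.34 for Mmp, -0.02 for Adamts and 0.56 for Timp, so the Adamts median was not above 0 there.

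**Figure D3:**
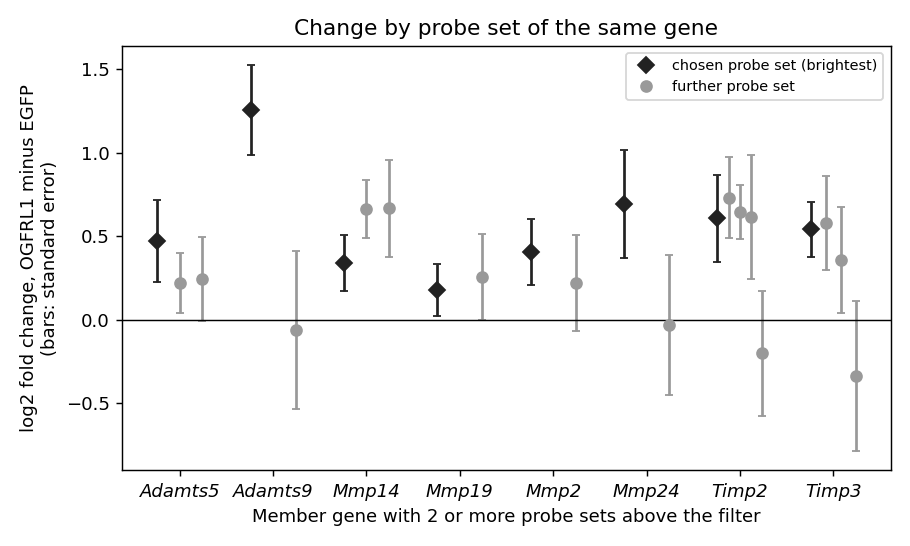
Log2 fold change (OGFRL1 minus EGFP, standard error from the fit of all probe sets) for the 8 genes with several probe sets above the filter. Diamonds are the chosen, brightest probe sets and circles the others; the probe sets of Mmp14 and most of those of Timp2 lie above 0, and the second probe set of Adamts9 lies at -0.06 while the chosen one lies at 1.26.

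Degradation and inhibition were then set side by side as changes, with each array expressed relative to the mean of the EGFP arrays. The mean over the 11 tested Mmp genes was 0.30 on OGFRL1 array 1 and 0.72 on OGFRL1 array 2. The mean over the 4 Timp genes was 0.48 and 0.65 on the same arrays. The difference, Mmp minus Timp, was 0.06 and -0.06 on the EGFP arrays and -0.19 and 0.07 on the OGFRL1 arrays, so the groups overlapped. Its group difference of -0.06 was smaller than the pooled SD between arrays of 0.14. Counting the Adamts genes with the Mmp genes gave -0.08, with a pooled SD of 0.04; here both OGFRL1 arrays (-0.10 and -0.05) were below both EGFP arrays (-0.03 and 0.03). With no filter, which brings in 7 dim Mmp genes and no further Timp gene, the Mmp minus Timp difference was -0.26, so its size depends on the dim genes. Mmp8, Mmp9 and Timp4, which passed the filter only through the OGFRL1 group, are part of all these means, so the values support no direction of the balance. Without them the median log2 fold change was 0.55 over 9 Mmp genes and 0.61 over 3 Timp genes. The means on each array and the Mmp minus Timp difference were not computed without them. Enzyme activity and protein were not measured.

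**Figure D4:**
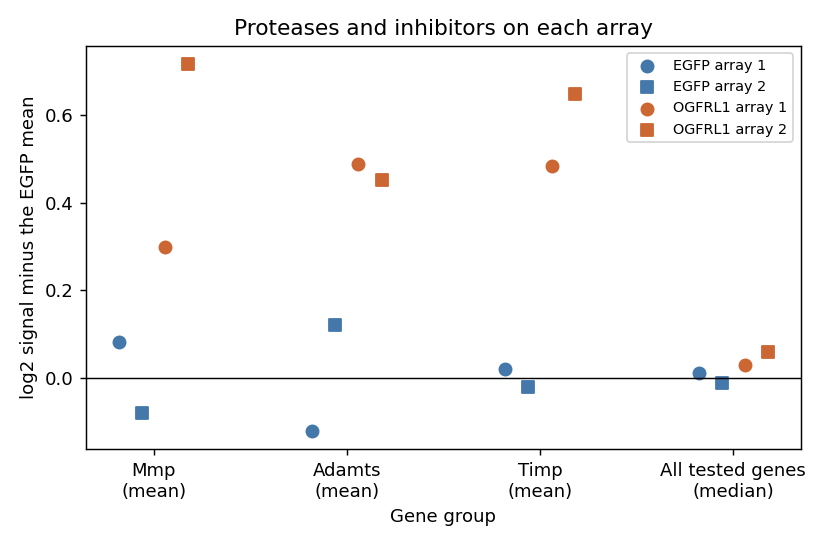
Mean log2 signal of the tested Mmp (n = 11), Adamts (n = 9) and Timp (n = 4) genes on each array, relative to the mean of the EGFP arrays, and the median over all tested genes on the same scale. On both OGFRL1 arrays all 3 families lie above both EGFP arrays, and the Mmp genes differ most between the OGFRL1 arrays (0.30 and 0.72). The means include Mmp8, Mmp9 and Timp4, which passed the filter only through the OGFRL1 group.

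A part of this difference sat in single arrays. Whichever array was left out, the log2 fold change of the chosen probe set stayed within 1.5 times its value in 6 of the 24 members. These were Adamts4, Adamts9, Adamts12, Mmp19, Mmp23 and Timp3, and the change moved further in the other 18. OGFRL1 array 2 had the highest signal of the 4 arrays in 14 of the 24 members and OGFRL1 array 1 in 7, against 27.3% and 22% of all genes tested. Without OGFRL1 array 2 the median of the Mmp genes was 0.21, and without OGFRL1 array 1 it was 0.79. The Adamts median was 0.24 without EGFP array 1 and 0.60 without EGFP array 2, and the Timp median stayed between 0.47 and 0.70 whichever array was left out.

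Markers of matrix-producing cells were mostly higher in OGFRL1 livers, beside 55.6% of all genes tested. Of 8 stellate and myofibroblast markers, 7 were higher in OGFRL1 livers (median 0.79), with 0 past the threshold; Col1a1 and Lum among them also stand in the list of matrix substrates. Their summed signal was 1284 to 1331 in EGFP livers and 1827 to 2291 in OGFRL1 livers. Lrat, which marks quiescent stellate cells, was the 1 lower marker, at -0.08 ± 0.17. Reln and Des, of the same list, were at 0.25 ± 0.15 and 0.29 ± 0.24. Markers of cycling cells were also higher, in 5 of 5 genes (2 past the threshold), with summed signals of 653 to 984 and 2489 to 2985. Of 7 endothelial markers, 2 were higher and 5 lower (median -0.20). Of 4 tested cholangiocyte markers, 2 were higher and 2 lower (median 0.07). The part of any of these cell types in the members' values was not tested.

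Leukocyte markers varied between arrays rather than between groups. The summed signal of 9 macrophage markers was 14407 and 6715 in EGFP livers against 8168 and 12367 in OGFRL1 livers, and 4 of the 9 were higher in OGFRL1 livers. The sum of 4 neutrophil markers was 651 and 227 in EGFP livers and 293 and 432 in OGFRL1 livers, with Camp and Cxcr2 below the filter. EGFP array 2 was the lowest of the 4 arrays in both sums. It was also the lowest for Timp1 and Mmp9, while Mmp12 and Mmp8, which macrophages and neutrophils are known for, were lowest on EGFP array 1. This is not particular to these genes, since 15 members were lowest on EGFP array 1 and 9 on EGFP array 2. The part of leukocytes in these values was not tested.

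Among the matrix proteins that the family cuts, 20 of 24 tested genes were higher in OGFRL1 livers, with a median of 0.57. Nid1, the basement membrane linker nidogen, was the one that passed, and it rose from 402 ± 34.5 (SD, n = 2) to 1078 ± 203 (1.41 ± 0.17, adjusted p = 0.0433). That call was lost after quantile normalization (adjusted p = 0.0545), under the stricter filter (0.0512), with no filter (0.0887), with the mean over probe sets (0.0924), without an intensity trend (0.151), with all probe sets (0.111) and without either OGFRL1 array (0.262 and 0.211). Col1a1 (2.002 ± 0.285, adjusted p = 0.0503), Col5a1 (0.85 ± 0.18) and Col6a3 (1.15 ± 0.26) followed. Col18a1, a basement membrane collagen, was lower, with 1478 and 1501 against 1143 and 1112 (-0.40 ± 0.125, adjusted p = 0.209).

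Activators and cell-surface regulators of the proteases did not share one direction. Of 13 tested, 8 were higher and 5 lower, with a median of 0.09 and 0 past the threshold. Plat, the tissue plasminogen activator, gave 57.1 and 34.0 in EGFP livers and 100.1 and 104 in OGFRL1 livers (1.15 ± 0.26, adjusted p = 0.116). Plg, the plasminogen made by hepatocytes, was at -0.55 ± 0.16 (adjusted p = 0.19), and the proprotein convertase Pcsk6 at -0.29 ± 0.15. Plg was among the 134 tested genes with the highest mean signals, whose median was -0.43, with 6 above 0. Whether Plg was lower beyond that shift was not tested. Reck, a membrane-bound inhibitor of Mmp enzymes, was at 0.45 ± 0.255 (adjusted p = 0.469), with the same sign as the Timp genes.

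Among the related ADAM sheddases, ADAMTS-like proteins and astacin proteases, 12 of 14 tested genes were higher, with a median of 0.12 and 0 past the threshold. Adamtsl2, which binds microfibrils and has no protease domain, gave 53.4 and 50.6 against 71.3 and 106 (0.70 ± 0.235, adjusted p = 0.232). Adam10, a widely expressed sheddase, gave 482 and 597 against 731 and 700 (0.41 ± 0.15, adjusted p = 0.273), with no overlap between the groups. Adam12 was at 0.53 ± 0.40 and Adam17 at 0.23 ± 0.20.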

How the data were processed

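Biotin-labelled cRNA from 100 ng of total RNA was hybridised to single-colour arrays, per the labels. The deposited values are MAS5 signal intensities, 1 per probe set, made by the authors with MAS5 per the submitters' processing notes; its version and detection calls are not given in the sources used here. Gene names came from the platform annotation (34945 of 45101 probe sets had 1 symbol). All 37 member symbols were found in the RefSeq table. Intensities were log2-transformed after adding 3.51, the 25th percentile, so fold changes understate the change of dim genes. The probe set with the highest mean stood for a gene, and genes with a mean of at least 11.6 were tested: 11942 genes with limma 3.58.1 in R 4.3.3 (eBayes with an intensity trend, 2-sided, Benjamini-Hochberg, threshold 0.05; 2 residual and 4.48 prior degrees of freedom). Error bars after ± are standard errors of the fit unless marked SD. The number of arrays limits the precision.

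On simulated data of 11942 genes for this comparison the fit found 26.4% of genes with a log2 change of 1 and 78% of those with 2. The members and lists were chosen with earlier results of these data known, so lists are described by counts and medians and not tested. Every tested member is named with its values; of the pathway lists, genes past the threshold and up to 4 by moderated t are named, and Col18a1 and the dim proteoglycan genes, outside that rule, were chosen after their values were seen. TATA and GC boxes were added to the AP-1 search after the data were seen. Protein sequences were not analysed here.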

Additional observations from a re-analysis of the deposited data

How the results depend on the processing

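Across settings other than leaving out an array, the median ranged from 0.34 to 0.57 for Mmp genes, -0.02 to 0.44 for Adamts genes and 0.39 to 0.62 for Timp genes, and the Mmp minus Timp difference from -0.26 to 0.03. The mean over probe sets gave 0.28 for Adamts and 0.39 for Timp genes, the fit of all probe sets -0.024 for Adamts genes, and no filter -0.26 for Mmp minus Timp; the first 2 settings take in dim probe sets and the last dim genes. Members past the threshold numbered 0 in each of these settings, which do not include the unplanned crossed replicate block given at the end of this paragraph. The count over all genes, 61, was 4 after quantile normalization, 94 with 4 times the pseudocount, 21 under the stricter filter, 13 with the mean over probe sets, and 0 with no filter, without an intensity trend or with all probe sets (limma; 2179, 1654 and 3673 at an unadjusted p under 0.05); the cause was not tested. With each array left out in turn, 0 to 2 members passed, among 0 to 856 genes; the 2 were Adamts9 and Mmp13 (1.61, adjusted p = 0.0255) without EGFP array 2, with 1 lone array assumed to vary like the other group. Those medians ran from 0.21 to 0.79 for Mmp and 0.24 to 0.60 for Adamts genes. Of 24 members, 19 kept their sign in every setting that gave them 1 value per gene (the stricter filter held 10 of the 24); Adamts16 was at 0.006 with equal medians, and leaving out an array gave -0.67 to 0.60 for Adamts16, -0.17 to 0.86 for Adamts10, -0.335 to 0.993 for Timp4, -0.62 to 1.68 for Mmp9 and -0.009 to 0.84 for Mmp8. The replicate numbers share no stated animal or batch, and same-numbered arrays deviated in opposite directions (correlation -0.276); with the replicate block 59 genes and 0 members passed. The crossed replicate block, added after seeing the data, called 934 genes and 3 members.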

Other observations

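In the RefSeq gene order, 10 Mmp genes lie side by side on chromosome 9, in the order Mmp13, Mmp12, Mmp1b, Mmp3, Mmp1a, Mmp10, Mmp8, Mmp27, Mmp20 and Mmp7. Of these, 9 were among the members, and 4 were bright enough to be tested: Mmp13 and Mmp12 at one end, Mmp7 at the other and Mmp8 between. The log2 fold changes of these 4 ran from 0.42 for Mmp8, which passed the filter only through the OGFRL1 group, to 0.84 for Mmp13. With no filter, 5 of the 9 genes were above 0 and 4 below, beside 51.4% of all genes above 0. The 5 others, including the stromelysins Mmp3 and Mmp10 and both mouse counterparts of the interstitial collagenase, stayed below the filter. Of the 7 genes with an AP-1 site in the promoter window, each belongs to this cluster, and 4 of them were below the filter. Promoters were searched for only 23 of the 37 genes, without Mmp2, Mmp9, Mmp16, Mmp17 and Mmp19. Whether the site is confined to the cluster therefore cannot be said. Adamts1 and Adamts5 are likewise neighbours, on chromosome 16, and were at 0.33 and 0.47.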
